A study of Mus musculus with 6 samples.

Results

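The common gamma chain receptor subunits are the genes of the cytokine receptors that share 1 signaling chain, and 7 of them were examined among the 24421 genes of the deposited count table: Il2rg, Il2rb, Il2ra, Il7r, Il4ra, Il21r and Il9r. They were taken by gene symbol, all 7 symbols were found, and the rule used no measured value. RNA came from lineage-negative, KIT-positive (Lin-CD117+) bone marrow cells, a sorted fraction of blood stem and progenitor cells, of female CByB6F1 hybrid mice aged 2 to 5 months. The 2 groups were 3 pools from mice given ruxolitinib (RUX pools 4, 5 and 6) and 3 pools from untreated mice (pools 1, 2 and 3). Each pool held sorted cells of 2 to 3 mice of 1 group, so the spread within a group is a spread between pools. Dose and length of treatment are not stated in the labels. Ruxolitinib inhibits the kinases JAK1 and JAK2, and the comparison asks about its toxicity in mice without disease.

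Receptors for IL-2, IL-4, IL-7, IL-9, IL-15 and IL-21 all contain the gamma chain encoded by Il2rg, joined by other chains that set which cytokine is bound. The gamma chain carries the kinase JAK3 and its partner signaling chains carry JAK1, and ligand binding brings the pair together so that STAT proteins, mainly STAT5, STAT6 and STAT3, are phosphorylated. In mouse bone marrow the family is best known for IL-7, which lymphoid progenitors need to form B and T cells; loss of either chain of the IL-7 receptor leaves mice with few lymphocytes.

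The upstream DNA of Il2rg and Il7r is shown first because these genes encode the pair of chains of the IL-7 receptor and had fold change estimates on opposite sides of 0. Each line gives the 250 bases before the RefSeq transcript start (build GRCm38.p6, 5′ to 3′ on the gene's own strand), with motif matches in capitals. The Il2rg window is chrX:101268256-101268505 on the minus strand and the Il7r window is chr15:9529877-9530126 on the minus strand.
Il2rg: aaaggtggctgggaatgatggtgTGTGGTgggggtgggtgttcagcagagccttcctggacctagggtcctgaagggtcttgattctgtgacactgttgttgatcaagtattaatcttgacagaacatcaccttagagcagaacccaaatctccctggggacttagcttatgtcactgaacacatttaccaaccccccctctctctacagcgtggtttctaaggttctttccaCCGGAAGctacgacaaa
Il7r: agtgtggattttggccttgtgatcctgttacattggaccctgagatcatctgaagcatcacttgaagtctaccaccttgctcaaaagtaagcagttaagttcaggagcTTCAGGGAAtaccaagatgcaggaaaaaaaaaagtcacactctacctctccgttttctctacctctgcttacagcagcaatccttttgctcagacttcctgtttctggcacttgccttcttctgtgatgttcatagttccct
Both strands were searched for 4 short motifs, TTCNNNGAA (bound by STAT proteins), CCGGAAG (ETS proteins), TGTGGT (RUNX proteins) and the interferon response motif (GAAA, any 2 bases, GAAA). The capitals in Il2rg mark a TGTGGT match beginning 227 bases before the start and a CCGGAAG match beginning 17 bases before it. The capitals in Il7r mark 1 match to TTCNNNGAA, beginning 142 bases before the start. Of the 32851 mouse promoter windows of this length, 7.02% held TTCNNNGAA, 6.91% CCGGAAG, 14.0% TGTGGT and 2.98% the interferon response motif. Windows were found for 6 of the 7 genes; in the other four, TGTGGT occurred once in Il21r and once in Il9r, and none of the 4 motifs occurred in Il4ra or Il2ra. These matches describe the letters only.

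The shared chain was by far the most abundant of the family, and the private chains fell into a measured and a near-absent set. Levels of different genes were compared as FPKM, read pairs scaled to library size and to the deposited exon length. By their means over the 6 pools the order was Il2rg (39.3 FPKM, range 28.7 to 47.0), Il21r (7.88, 6.99 to 9.61), Il4ra (4.81, 4.47 to 5.34), Il7r (4.72, 3.81 to 5.82), Il2rb (0.617, 0.153 to 1.06), Il9r (0.0457, 0.0225 to 0.116) and Il2ra (0.0226, 0.00926 to 0.0434). Il2rg thus stood above every private chain in each of the 6 pools. Of the 6 neighbouring pairs in this order, 2 had ranges that overlapped, Il4ra with Il7r and Il9r with Il2ra, and in each of these pairs the first was above the second in 4 of 6 pools. Among the 13411 genes that passed the filter on low counts, the mean FPKM of Il2rg was higher than that of 81.1%, that of Il21r higher than 50.8%, and those of Il4ra and Il7r higher than 41.5% and 41.2%. Il2rg supplied 68.5 to 71.8% of the family's summed FPKM in RUX pools and 62.4 to 69.6% in untreated pools.

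**Figure D1:**
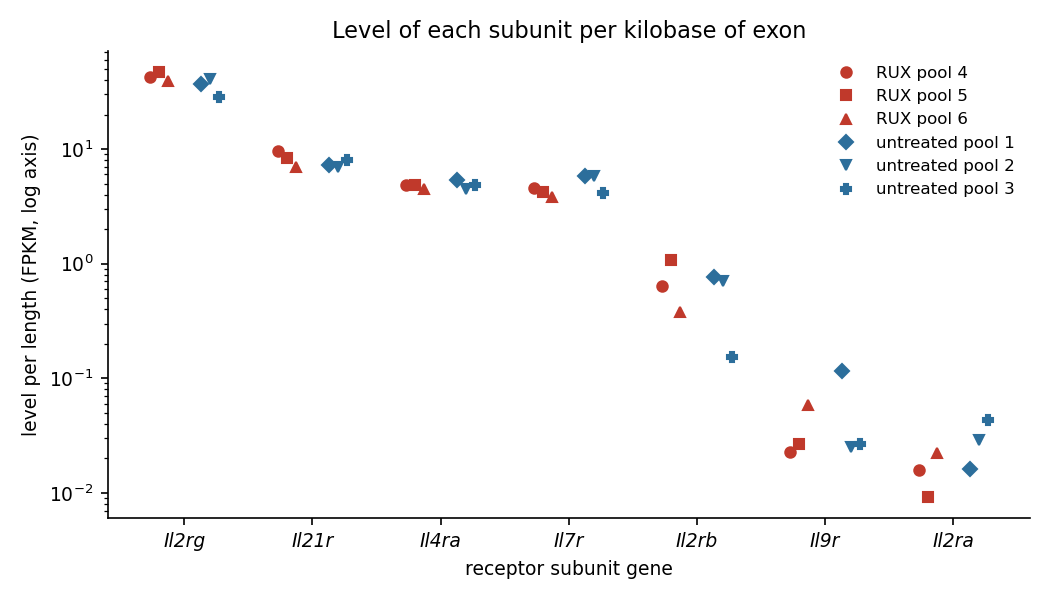
Level of the 7 subunit genes in FPKM on a log axis, 1 symbol per pool, with RUX pools left of untreated pools for each gene. Il2rg lies at 28.7 to 47.0 FPKM, Il21r, Il4ra and Il7r between 3.81 and 9.61 FPKM, and Il9r and Il2ra at 0.116 FPKM or less.

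None of the subunit genes differed beyond the test's threshold in RUX pools against untreated pools. Of the 7 genes, 5 passed the low-count filter, 3 of them with a positive and 2 with a negative log2 fold change (RUX minus untreated), and 0 passed edgeR's quasi-likelihood test at a Benjamini-Hochberg adjusted p of 0.05; at an unadjusted p under 0.05 there were also 0, and DESeq2 and limma-voom called 0. Over all 13411 tested genes the called share was 0%, and 1.89% had an unadjusted p under 0.05. None of the 7 genes had RUX pools all above or all below the untreated pools in CPM (counts scaled to a common library size), where 2.99% of all tested genes lay entirely above and 3.25% entirely below. The median log2 fold change of the 5 genes was 0.16, against −0.004 over all tested genes, of which 49.2% were positive. The edgeR adjusted p was 1.00 for each of the 5 genes and is not repeated below.

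Before the members are described, the pools themselves need a word. Totals were 46027491 to 48747137 read pairs in RUX pools and 27354768 to 38691826 in untreated pools, so depth did not overlap between the groups. The sorted antigen gene Kit stood at 295 to 416 CPM in RUX pools and 196 to 471 CPM in untreated pools, while Cd3e, a T cell lineage antigen gene, reached no more than 0.538 CPM in any pool. RUX pool 4 and untreated pool 3 stood apart: the summed level of 5 eosinophil markers was 225 and 234 CPM in them and 39.2 to 90.5 CPM in the other four pools. Untreated pool 3 also had the highest neutrophil marker sum, at 14116 CPM against 6366 to 10462 CPM elsewhere. Its stem cell marker sum was the lowest, at 79.4 CPM against 142 and 139 CPM in untreated pools 1 and 2. RUX pools stood at 145 to 161 CPM, so the stem cell sums did not overlap between the groups. Of 6 stem cell markers 4 had a positive and 2 a negative log2 fold change, and 0 passed the test. RUX pools lay all above untreated pools for 2 of them, beside 2.99% of all tested genes. Untreated pool 1, with the fewest read pairs, was the lowest for some neutrophil genes but not for Mpo or Elane. In it S100a8 stood at 54.5 CPM against 111 to 739 CPM elsewhere, and Ltf at 8.93 CPM against 28.9 to 152 CPM. Fits without RUX pool 4, untreated pool 3 or both are given where they move a value.

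Il2rg encodes the gamma chain itself (chromosome X, 101264385 to 101268255 in mm10, minus strand, 8 exon blocks). In the GENCODE annotation its exons are overlapped by Gm20489 on the same strand, so some reads could belong to either. It measured 71.2, 78.2 and 64.7 CPM in RUX pools 4, 5 and 6, against 61.7, 68.6 and 47.7 CPM in untreated pools 1, 2 and 3. Untreated pool 3 was the lowest pool and RUX pool 5 the highest, and the groups overlapped through untreated pool 2. The means were 71.4 ± 6.77 CPM in RUX pools and 59.3 ± 10.7 CPM in untreated pools (SD, n = 3 each). The log2 fold change was 0.27 ± 0.16 (SE), with a 95% interval of −0.08 to 0.62, or 0.945 to 1.53-fold. Without untreated pool 3 the log2 fold change was 0.13, and without untreated pool 2 it was 0.39.

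Il7r encodes the private chain of the IL-7 receptor, which also forms the receptor of thymic stromal lymphopoietin (TSLP) with the product of Crlf2 (chromosome 15, 9506159 to 9529876, minus strand, 8 exon blocks). It measured 14.6, 13.5 and 12.2 CPM in RUX pools 4, 5 and 6, against 18.6, 18.7 and 13.3 CPM in untreated pools 1, 2 and 3. The 3 RUX pools lay below untreated pools 1 and 2, and untreated pool 3 fell among the RUX pools. The means were 13.5 ± 1.19 CPM in RUX pools and 16.9 ± 3.05 CPM in untreated pools (SD, n = 3 each). The log2 fold change was −0.33 ± 0.19 (SE), with a 95% interval of −0.73 to 0.07, or 0.605 to 1.05-fold. Leaving out untreated pool 3 gave −0.47 (edgeR adjusted p of 0.998), and leaving out RUX pool 4 as well gave −0.53 (adjusted p of 0.989). In bulk RNA, fewer cells of a type and less RNA per cell cannot be told apart.

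Lymphoid markers were set beside Il7r because lymphoid progenitors carry its protein. The summed level of 18 early lymphoid and B cell markers, all detected, was 966 to 1289 CPM in RUX pools and 1166 to 1364 CPM in untreated pools. Of these 18 genes 15 had a negative and 3 a positive log2 fold change (median −0.14), and 0 passed the test. Dntt, which adds nucleotides at antigen receptor joints, averaged 438 ± 51.0 CPM in RUX pools and 534 ± 56.0 CPM in untreated pools, and Flt3, a growth factor receptor gene of early progenitors, 214 ± 20.9 CPM in RUX pools and 208 ± 40.7 CPM in untreated pools (SD, n = 3 each). The sum of 10 T cell markers was 28.6 to 39.6 CPM in RUX pools and 41.8 to 46.3 CPM in untreated pools, without overlap. Most of that sum was Lck, a kinase gene of T cells, at 17.8 ± 3.07 CPM in RUX pools and 23.5 ± 1.31 CPM in untreated pools, and Tcf7, a transcription factor gene of early T cells, at 9.84 ± 2.16 CPM in RUX pools and 14.3 ± 2.52 CPM in untreated pools (SD, n = 3 each). Of the 10 T cell markers 8 were tested, 3 positive and 5 negative (median −0.42), and 0 passed the test. The 3 positive ones were Cd3g, Cd4 and Thy1, with log2 fold changes of 0.18, 0.21 and 0.22. Lck, Tcf7 and Bcl11b had unadjusted edgeR p-values of 0.0350, 0.0232 and 0.0215, each with an adjusted p of 1.00. Over all tested genes, 1.89% had an unadjusted p under 0.05 and 3.25% had RUX pools all below untreated pools. RUX pools lay all below untreated pools for Lck and for Bcl11b, a T cell transcription factor gene named after its values were seen, which averaged 0.466 ± 0.231 CPM in RUX pools and 1.14 ± 0.189 CPM in untreated pools (SD, n = 3 each), a log2 fold change of −1.28 ± 0.49 (SE). In this list the defining antigen genes Cd3e and Cd8a were too low to be tested, and Cd8a had 0 read pairs in all 3 RUX pools and in untreated pool 2. As a share of the early lymphoid sum, Il7r stood at 1.26, 1.05 and 1.27% in RUX pools 4, 5 and 6, against 1.42, 1.37 and 1.14% in untreated pools 1, 2 and 3. These shares overlapped between the groups. The part of these lymphoid and T cell markers in the Il7r values was not tested.

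**Figure D2:**
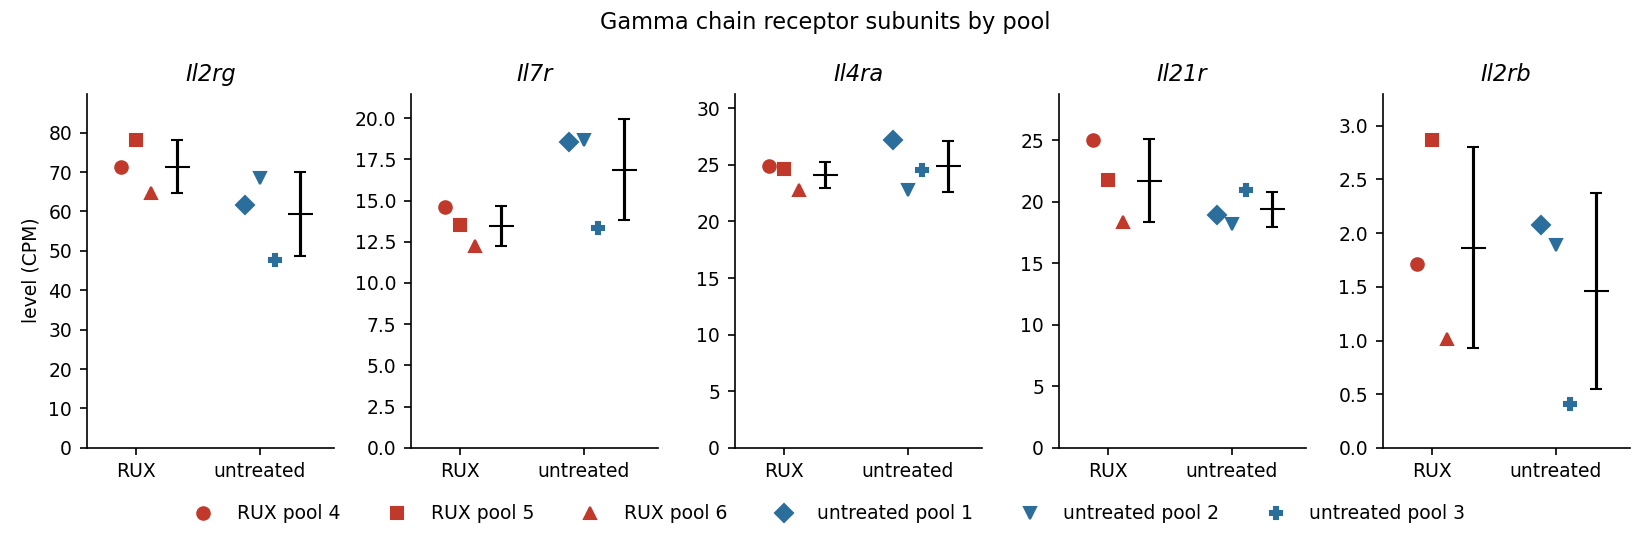
Level in CPM of the 5 tested subunit genes, 1 symbol per pool, with the mean and SD of 3 pools as a bar beside each group. RUX and untreated pools overlap in every panel, and untreated pool 3 is the lowest of its group for Il2rg, Il7r and Il2rb.

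**Figure D3:**
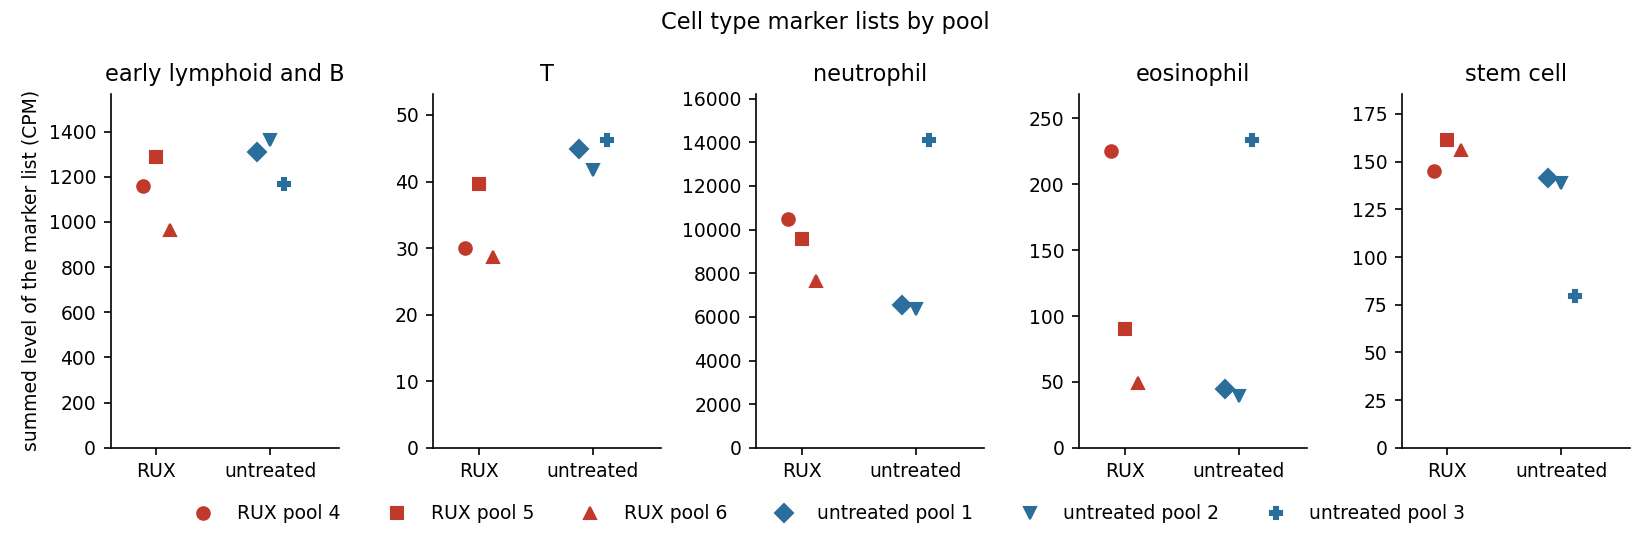
Summed CPM of 5 cell type marker lists, 1 symbol per pool, with no error bars. The T cell sums are 28.6 to 39.6 CPM in RUX pools and 41.8 to 46.3 CPM in untreated pools. The stem cell sums are 145 to 161 CPM in RUX pools and 79.4 to 142 CPM in untreated pools. RUX pool 4 and untreated pool 3 have the highest eosinophil sums.

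Il7r was also set against Il2rg within each pool, because the 2 genes encode the chains of the IL-7 receptor. Per length, Il7r amounted to 10.6, 8.95 and 9.80% of Il2rg in RUX pools 4, 5 and 6, against 15.6, 14.1 and 14.5% in untreated pools 1, 2 and 3. The groups did not overlap, with means of 9.79 ± 0.841% in RUX pools and 14.7 ± 0.766% in untreated pools (SD, n = 3 each). This was 1 of 6 ratios among the 4 genes at 5 CPM or more, and the other five overlapped. The ratio was singled out after its values were seen and carries no test. Among 9911 other genes at 5 CPM or more, 12% had a ratio to Il2rg with all RUX pools below all untreated pools. Such a split was therefore not particular to Il7r. The 12% counts this direction only, while the 6 ratios were looked at in either direction. Il4ra amounted to 10.3 to 11.5% of Il2rg in RUX pools and 10.9 to 16.8% in untreated pools, and Il21r to 17.8 to 22.4% in RUX pools and 16.9 to 28.0% in untreated pools. Both thus overlapped.

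**Figure D4:**
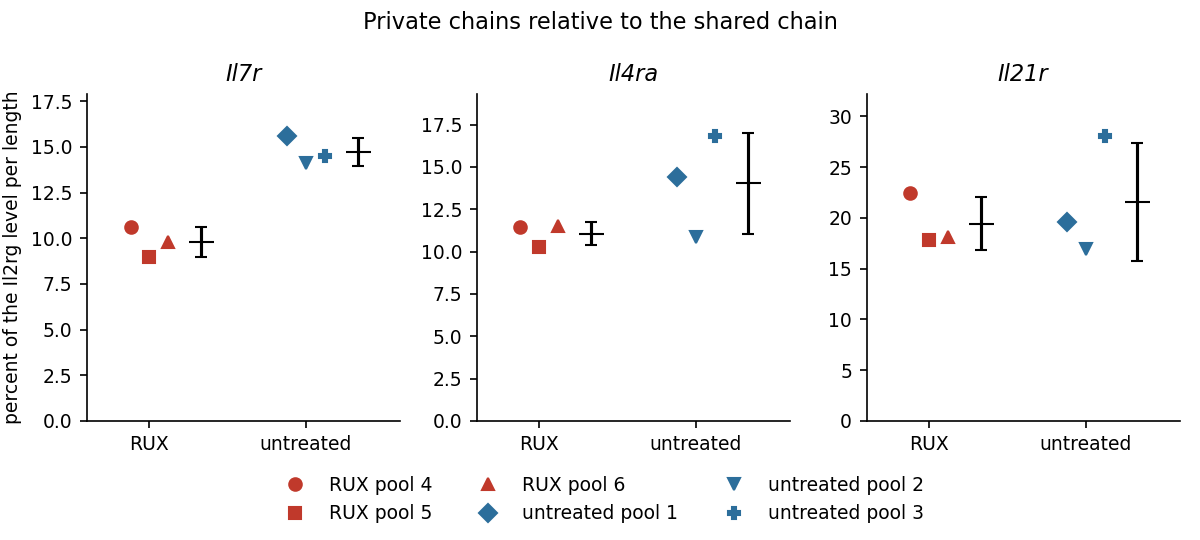
Level per length of Il7r, Il4ra and Il21r as a percent of Il2rg, 1 symbol per pool, with the mean and SD of 3 pools beside each group. Il7r lies at 8.95 to 10.6% in RUX pools and 14.1 to 15.6% in untreated pools, while the other panels overlap.

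Il4ra and Il21r are neighbours on chromosome 7, both on the plus strand, with 0 annotated genes in the 23954 bases between them. Il4ra encodes the chain that binds IL-4 and, with the product of Il13ra1, also serves IL-13 (125552282 to 125579474, 11 exon blocks). It measured 24.9, 24.6 and 22.8 CPM in RUX pools 4, 5 and 6, against 27.2, 22.8 and 24.6 CPM in untreated pools 1, 2 and 3. The groups overlapped almost fully, with a log2 fold change of −0.04 ± 0.15 (SE) and a 95% interval of −0.37 to 0.28, or 0.772 to 1.22-fold. Its coefficient of variation was 4.85% among RUX pools, the lowest of the 7 genes there, and 8.93% among untreated pools, where Il21r was lower at 7.28%. For comparison, the median over 9912 tested genes at 5 CPM or more was 11.5% among RUX pools and 13.8% among untreated pools. An antisense gene of the GENCODE annotation, Gm44876, overlaps an exon of Il4ra, and counting without strand cannot separate reads of the pair.

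Il21r encodes the chain that binds IL-21, a cytokine of T cells (125603429 to 125633570, 9 exon blocks). It measured 25.04, 21.8 and 18.3 CPM in RUX pools 4, 5 and 6, against 19.0, 18.2 and 21.0 CPM in untreated pools 1, 2 and 3. RUX pool 4 was the highest and RUX pool 6 lay within the untreated range. The log2 fold change was 0.16 ± 0.17 (SE), with a 95% interval of −0.20 to 0.53, or 0.870 to 1.44-fold; without RUX pool 4 it was 0.06 and without RUX pool 6 it was 0.27. Although the genes are neighbours, their pools were not ordered alike: untreated pool 1 was the highest of the 6 for Il4ra and the fourth for Il21r.

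Il2rb encodes the signaling chain of the IL-2 and IL-15 receptors, carried by NK cells and T cells (chromosome 15, 78480549 to 78495066, minus strand, 10 exon blocks). It was counted at 74, 140 and 51 read pairs in RUX pools 4, 5 and 6, against 58, 74 and 15 read pairs in untreated pools 1, 2 and 3. In CPM these were 1.71, 2.87 and 1.01 in RUX pools and 2.07, 1.89 and 0.412 in untreated pools. RUX pool 5 was the highest and untreated pool 3 the lowest, and the spread within each group exceeded the difference between their means of 1.87 ± 0.939 CPM in RUX pools and 1.46 ± 0.911 CPM in untreated pools (SD, n = 3 each). The log2 fold change was 0.36 ± 0.53 (SE), with a 95% interval of −0.77 to 1.496, or 0.585 to 2.82-fold, and it turned to −0.094 without RUX pool 5 and to −0.086 without untreated pool 3. Of the NK cell receptor genes, Ncr1 stood at 0.377 to 0.741 CPM in RUX pools and 0.333 to 1.21 CPM in untreated pools, and Klrb1c at 1.92 to 4.77 CPM in RUX pools and 1.98 to 3.38 CPM in untreated pools. The 12 NK and innate lymphoid markers, all detected, summed to 244 to 450 CPM in RUX pools and 224 to 395 CPM in untreated pools, most of it from Nkg7, a cytotoxic granule gene, at 303 ± 95.9 CPM in RUX pools and 251 ± 84.0 CPM in untreated pools (SD, n = 3 each). Nkg7 was highest in RUX pool 4 and untreated pool 3 (403 and 346 CPM), the pools with the highest eosinophil marker sums. The sum of that list is thus not a measure of NK cells alone. Of 11 tested markers in that list 6 were positive and 5 negative, and 0 passed. Their part in the Il2rb values was not tested.

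Il2ra and Il9r were counted at or near the floor, taken as 3 read pairs per pool, and were left out of the test by the low-count filter. Il2ra encodes the chain that gives the IL-2 receptor its high affinity, as on activated and regulatory T cells (chromosome 2, 11642792 to 11693194, plus strand, 8 exon blocks). It had 3, 2 and 5 read pairs in RUX pools 4, 5 and 6, against 2, 5 and 7 in untreated pools 1, 2 and 3. Summed over pools this was 10 read pairs, or 0.0702 CPM with an exact Poisson 95% interval of 0.0337 to 0.129, in RUX pools and 14 read pairs, or 0.135 CPM with an interval of 0.0740 to 0.227, in untreated pools; these intervals cover counting error only. Foxp3, the defining gene of regulatory T cells, was likewise at 0.0198 to 0.278 CPM in RUX pools and 0 to 0.0549 CPM in untreated pools. Il9r encodes the IL-9 binding chain, known on mast cells and some T cells (chromosome 11, 32188997 to 32200279, minus strand, 9 exon blocks). It had 3, 4 and 9 read pairs in RUX pools 4, 5 and 6, against 10, 3 and 3 in untreated pools 1, 2 and 3, a sum of 16 in either group. The floor of 3 read pairs corresponded to 0.0595 to 0.0695 CPM in RUX pools and 0.0768 to 0.107 CPM in untreated pools, so neither gene could be compared between the groups at this depth. The 8 mast cell and basophil markers, set beside Il9r, spanned a wide range of levels. The 2 highest were Cpa3, a mast cell carboxypeptidase gene, at 124 ± 31.9 CPM in RUX pools and 114 ± 11.5 CPM in untreated pools, and Gata2, a progenitor and mast cell transcription factor gene, at 134 ± 22.4 CPM in RUX pools and 121 ± 24.0 CPM in untreated pools (SD, n = 3 each). The lowest was Cma1, a mast cell protease gene, at 0.308 to 0.788 CPM in RUX pools and 0.0512 to 0.879 CPM in untreated pools.

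The genes whose profiles over the 6 pools were most like those of the members differed from member to member. Likeness was the root mean square difference between profiles of log2(CPM + 1), each centred on its own mean, over 9531 named genes at 5 CPM or more. The 3 nearest to Il2rg were Fam168a (0.0437), Dnah8 (0.0544) and Itga2b (0.0550), the last an integrin gene of megakaryocytes. Nearest to Il7r were Satb1 (0.0716), which encodes a chromatin organiser of lymphoid cells, Siah1a (0.0737), a ubiquitin ligase gene, and Stk17b (0.0759), a kinase gene. Il4ra lay closest to Gskip (0.0221), Trappc3 (0.0239) and Mtap (0.0251), and Il21r to Tpmt (0.0298), Diexf (0.0343) and Itm2c (0.0367). No member appeared among the nearest 3 genes of another.

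Of the other genes of the pathway, 50 in 7 lists were all found in the table and 45 were tested. None passed the test: 0 were called, 25 had positive and 20 negative log2 fold changes, and 2 had an unadjusted p under 0.05, where 1.89% of all tested genes did. RUX pools lay all above untreated pools for 5 of the 45 and all below for 1, beside 2.99% and 3.25% of all tested genes. The ligand genes were low in these cells. Of 6 ligands 4 were tested, with a median log2 fold change of 0.20, and Il9 had 0 read pairs in every pool, which allows up to 3 per pool. The most abundant, named after its values were seen, was Il15 at 9.09 ± 1.62 CPM in RUX pools and 9.35 ± 1.91 CPM in untreated pools (SD, n = 3 each). Il7, the lymphoid growth factor gene made by stromal cells, had 49, 51 and 86 read pairs in RUX pools 4, 5 and 6, against 9, 28 and 26 in untreated pools 1, 2 and 3. In CPM it stood at 1.14, 1.05 and 1.71 in RUX pools and 0.321, 0.717 and 0.714 in untreated pools, without overlap, and its log2 fold change was 1.13 ± 0.45 (SE; unadjusted edgeR p of 0.0260). Il2 had a log2 fold change of 0.34 ± 0.60 (SE).

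A list of related genes held 4 receptor genes (Il15ra, Il13ra1, Il13ra2 and Crlf2) and the cytokine genes Tslp and Il13. Of these 6 genes 4 were tested, 3 with a positive and 1 with a negative log2 fold change, and the median over receptors and Tslp together was 0.17. Il15ra, which presents IL-15 to the beta and gamma chains, averaged 8.50 ± 1.31 CPM in RUX pools and 10.1 ± 1.42 CPM in untreated pools, a log2 fold change of −0.25 ± 0.20 (SE). Il13ra1, the partner of Il4ra, averaged 1.08 ± 0.801 CPM in RUX pools and 0.577 ± 0.352 CPM in untreated pools. Il13ra2 had 0 read pairs in every pool.

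The kinase and STAT genes of these receptors were abundant and close between the groups: of 7 tested, 4 had positive and 3 negative log2 fold changes, and their median was 0.01. Jak3, whose kinase binds the gamma chain, averaged 46.4 ± 5.11 CPM in RUX pools and 44.5 ± 2.23 CPM in untreated pools, a log2 fold change of 0.06 ± 0.15 (SE). Jak1, whose kinase binds the partner signaling chains of the gamma chain, had a log2 fold change of 0.01 ± 0.17 (SE). Stat5a averaged 98.4 ± 9.18 CPM in RUX pools and 110 ± 5.46 CPM in untreated pools, a log2 fold change of −0.15 ± 0.14 (SE), and Stat5b, Stat6 and Stat3 had log2 fold changes of −0.09, −0.11 and 0.10. The 6 tested of 7 signal adaptor genes had a median of −0.01, with Irs2, an adaptor of the IL-4 receptor, at 0.21 ± 0.21 (SE) and the adaptor gene Grb2 at −0.10 ± 0.14 (SE).

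Feedback inhibitors held the second gene with an unadjusted p under 0.05. Of 7 tested genes 4 were positive and 3 negative, with a median log2 fold change of 0.11. Cish, a STAT5-induced inhibitor gene, measured 6.23, 5.66 and 4.88 CPM in RUX pools 4, 5 and 6, against 3.79, 4.27 and 3.35 CPM in untreated pools 1, 2 and 3, without overlap, and its unadjusted edgeR p was 0.0320. Socs1, an inhibitor gene of JAK kinases, had a log2 fold change of 0.77 ± 0.42 (SE) with overlapping groups. The 9 survival and growth targets had a median of 0.004, with 5 positive and 4 negative values; Pim2, a survival kinase gene, stood at 0.24 ± 0.17 (SE) and Myc at 0.19 ± 0.14 (SE), both without overlap. The 8 lymphoid regulators known to act on Il7r or beside it had 3 positive and 5 negative values and a median of −0.09; Ets1, a lymphoid transcription factor gene, stood at −0.19 ± 0.18 (SE) and Gfi1, which in mice represses Il7r, at 0.21 ± 0.28 (SE).

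**Figure D5:**
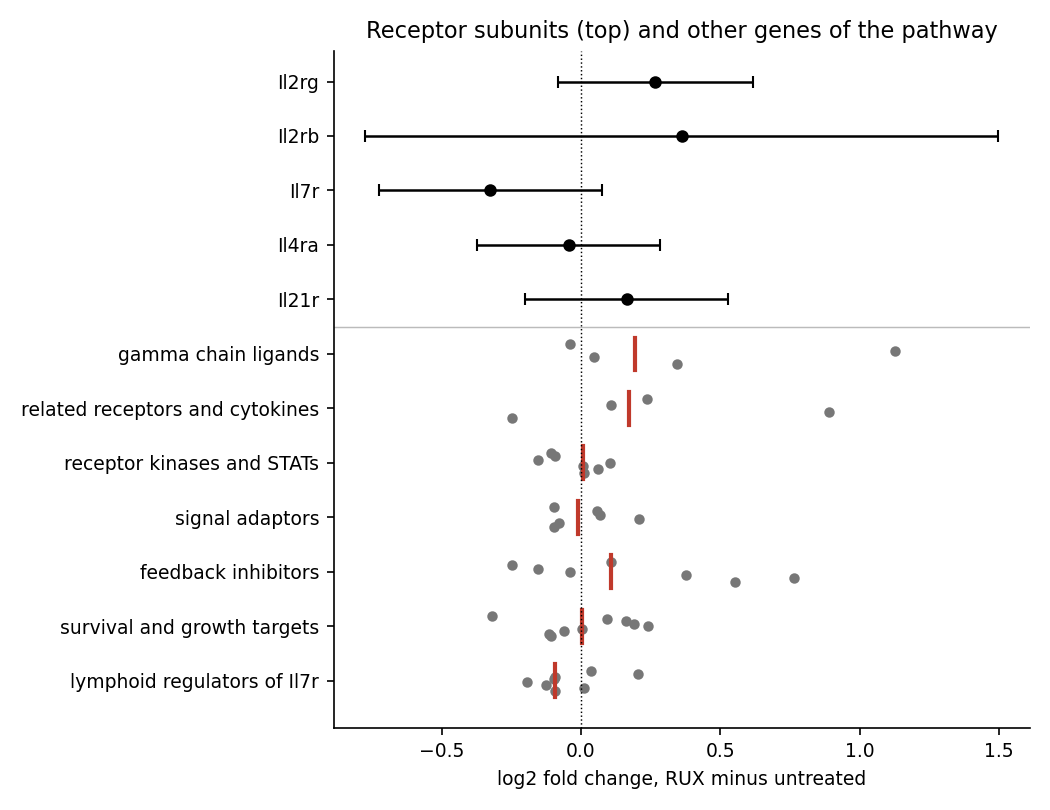
Log2 fold changes (RUX minus untreated) of the 5 tested subunit genes with 95% intervals (top) and of 45 tested pathway genes by list (grey points, 1 per gene, with the list's median as a red line). All 5 intervals include 0, and the farthest point, at 1.13, is Il7 among the ligands.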

How the data were processed

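The authors deposited unnormalized counts (read pairs falling on each gene) in 6 columns, 1 a pool, made with featureCounts 2.0.3 on exons of a UCSC mm10 annotation, per the file headers. STAR and mm10 are named, without a STAR version, in the submitters' processing notes. No strand option was set, per the file headers, so antisense reads are counted too. The deposited exon length per gene (in bases, unit other) gave FPKM values. Columns were matched to samples by library name; 0 rows lacked a gene name. Pool numbers are not shared between groups.

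edgeR 4.0.16 (R 4.3.3) kept 13411 genes with filterByExpr, scaled by TMM (factors 0.938 to 1.03) and tested RUX against untreated across all genes by the two-sided quasi-likelihood test, with Benjamini-Hochberg adjustment and a threshold of 0.05. CPM is relative to the TMM-scaled library. SEs are |log2 fold change| over the square root of F. The fits were tested on simulated data. Alternatives were edgeR with DESeq2 or upper-quartile scaling, other filters, DESeq2 1.42.0, robust fitting, limma-voom (limma 3.58.1, with quality weights or not), pools left out, and, added after the data were seen, counts thinned to the smallest total. Replicate pools differed far beyond sampling noise (the lowest chi-square over its degrees of freedom was 63.5) and were all kept. With 3 pools against 3 an exact permutation test cannot give a p below 0.1, and none was used.

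The members and lists were chosen with earlier results of these data known. Named genes were all 7 members, and from each pathway list Jak1, Jak3, Stat5a, Stat5b and Stat6 and up to 2 others with the smallest unadjusted p. From each marker list up to 2 genes with the highest level were named. A few further marker genes were named after their values were seen: Kit, Cd3e, Cd8a, Cd3g, Cd4, Thy1, Bcl11b, Ncr1, Klrb1c, Foxp3, S100a8, Ltf and Cma1. The 3 genes most like each member at 5 CPM or more were also named. Ly6g, a listed antigen gene, is not analysed here. Promoter sequences are from RefSeq (GRCm38.p6).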

Additional observations from a re-analysis of the deposited data

How the results depend on the processing

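Under the 16 alternative fits 0 members and 0 of the other pathway genes were called, and an adjusted p threshold of 0.1 also called 0 members. The smallest adjusted p of a member was 0.830, for Il2rg and for Il7r, with limma-voom quality weights. Unadjusted, that fit gave a p of 0.040 for Il2rg and 0.036 for Il7r, with 778 of 13411 genes under 0.05. Unadjusted edgeR p was 0.044 for Il2rg without untreated pool 2 (666 of 13747 genes under 0.05). For Il7r it was 0.019 without untreated pool 3 (545 of 13755) and 0.012 without RUX pool 4 as well (503 of 13469). Il2rg, Il7r and Il21r kept their direction in all 16 fits, with log2 fold changes of 0.13 to 0.39, −0.53 to −0.24 and 0.06 to 0.27. With 1 pool left out, Il2rb ranged from −0.094 to 0.69 and Il4ra from −0.094 to 0.025. The direction of Il2rb turned without RUX pool 5 (−0.094), without untreated pool 3 (−0.086) and without untreated pool 3 plus RUX pool 4 (−0.029), and that of Il4ra without untreated pool 1 (0.025). Thinning every pool to the smallest total gave 0.24 for Il2rg, −0.33 for Il7r and 0.12 for Il21r. Il2ra and Il9r were tested only with no low-count filter and in DESeq2, with log2 fold changes of −0.87 and −0.58, and −0.90 and −0.60, and rested on 24 and 32 read pairs in all. Over all genes, no low-count filter gave 14 calls and quality weights 1, against 0 in the main setting. TPM in place of FPKM left 2 of 6 neighbouring pairs overlapping, and a pseudocount of 0.5 named 11 of 12 most alike genes again. No paired analysis was possible because the groups share no replicate numbers.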
